A study of Mus musculus with 20 samples.

Results

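Olig1 and Olig2 are neighbouring genes on mouse chromosome 16, and the 2 were followed here in RNA and in the chromosome contacts of their promoters. They were taken as the RNA models with those symbols, 2 of 55419 models counted. Contacts were taken as every primer pair within their 5C region with a fragment overlapping the 10 kb on either side of either gene start. This gave 1476 of 96467 within-region pairs with a count, of which 1300 had a mean of at least 10 counts per library and were tested. On build mm9, Olig2 lies at chr16:91225795-91228922 and its window at chr16:91215795-91235795. Olig1 lies at chr16:91270014-91272184 and its window at chr16:91260014-91280014. The gene starts are 44219 bp apart, and 24219 bp separate the windows.

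Olig1 and Olig2 encode basic helix-loop-helix transcription factors of the oligodendrocyte lineage, the cells that make myelin in the central nervous system. Olig2 also marks the ventral progenitors that give rise to motor neurons, and is needed for oligodendrocytes to form. Olig1 acts mainly later, in the maturation of these cells and in the repair of myelin. The factors pair with ubiquitous helix-loop-helix partners and bind E-box sequences in DNA. Neither gene is part of the pluripotency programme of embryonic stem cells.

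The study set RNA beside chromosome folding in primary neural cells, in pluripotent cells reprogrammed from them and in embryonic stem cells. There were 5 groups with 2 RNA-seq and 2 5C libraries each, 20 libraries in all, and every group was of 129SvJae x C57BL/6 background. The iPS 2i group consisted of Sox2-eGFP induced pluripotent stem cells made from neural progenitors and moved to serum-free medium with LIF, CHIR99021 and PD0325901, a mixture called 2i that inhibits GSK3 and MEK. The iPS group was the same kind of cell kept in serum and LIF. The NPC group consisted of primary neural progenitors, taken at postnatal day 1 from the whole brain of mice carrying Sox2-eGFP, grown as neurospheres with EGF and FGF and then plated on laminin. The ES 2i group was the male embryonic stem line V6.5 in 2i, and the ES group was V6.5 in medium with LIF. The iPS and ES cells had been expanded on mouse embryonic fibroblasts and then passaged on gelatin. Cell line, genotype and cell type cannot be told apart between the iPS and ES groups, and no label says that libraries of a group came from separate cultures. The counts of the iPS RNA library titled replicate 2 were deposited under the replicate number 3, and the title was followed. The p-values therefore measure the spread between these libraries, which may be technical.

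RNA libraries held 1150624 to 17286063 reads assigned to a model, and 5C libraries 10508118 to 26533530 counts. NPC replicate 1 was the shallowest RNA library, with 86.6% of its reads outside every model. That share was 59.3% in NPC replicate 2, against 26.5% and 81.5% in the ES libraries, so it varied within groups. Log2 RNA levels of libraries of the same group correlated at 0.960 or more across models. For log2 counts of the window pairs this was 0.811 to 0.883 across pairs. Libraries of different groups reached 0.969 in RNA and 0.866 in the window pairs. In the window pairs iPS replicate 2 correlated at 0.834 with ES 2i replicate 2 and at 0.811 with iPS replicate 1. Genes and pairs are not independent replicates. The cell labels were checked against marker lists as summed CPM, the reads of a model scaled by the library's total. Pluripotency genes summed to 10.0 and 10.1 CPM in NPC against 9265 and 8819 CPM in ES, with 13 of the 14 measured members at 0 in both NPC libraries. Dppa5a, Tcfcp2l1 and Tdh were at least 1522-, 782- and 768-fold lower in NPC than in ES when 3 reads per library were taken as the floor. The pluripotency list summed to 7713 and 7791 CPM in iPS 2i, 7301 and 6374 CPM in iPS and 6474 and 6800 CPM in ES 2i. The 9 measured neural progenitor markers summed to 5692 and 6169 CPM in NPC, against 1262 and 1384 CPM in ES.

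The promoter of Olig2 is shown because its start is the anchor of one of the windows. RefSeq places it on the plus strand of GRCm38.p6, a later build than the mm9 of all other coordinates, at chr16:91225300-91225599, from 250 bases before to 50 bases after the start. Capitals mark a TATAAA match on the plus strand 8 bases before the start, and ATTGG, the reverse strand of CCAAT, 203 and 98 bases before it.
Olig2 promoter: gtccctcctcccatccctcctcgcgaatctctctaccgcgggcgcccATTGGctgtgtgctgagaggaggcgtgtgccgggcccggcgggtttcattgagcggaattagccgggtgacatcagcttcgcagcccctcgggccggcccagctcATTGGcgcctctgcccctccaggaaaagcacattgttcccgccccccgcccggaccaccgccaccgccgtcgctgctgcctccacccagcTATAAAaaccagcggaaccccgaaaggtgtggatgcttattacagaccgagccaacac
Of 27025 mouse promoters of this length, 14.2% held TATAAA and 37.9% held CCAAT on either strand. The sequence was 65% G and C, against a median of 52.7% over all promoters. It holds no HindIII site (AAGCTT), the enzyme site at which the 5C fragments end, and 7.36% of the promoters hold one. These matches are descriptions of the letters in this window.

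Olig1 RNA was abundant in NPC and at 20.0 CPM or less in the pluripotent groups. Its level was 18.0 and 13.9 CPM in iPS 2i, 16.9 and 17.5 CPM in iPS, 3684 and 4506 CPM in NPC, 6.45 and 9.22 CPM in ES 2i, and 17.0 and 20.0 CPM in ES. The NPC libraries stood apart from all others, and the ES 2i libraries were the lowest. Olig2 had 29.7 and 27.7 CPM in iPS 2i, 16.3 and 14.0 CPM in iPS, 1601 and 1885 CPM in NPC, 17.7 and 18.0 CPM in ES 2i, and 31.1 and 34.8 CPM in ES. NPC was again far above the other groups, and the iPS libraries were the lowest. In these cell populations, fewer cells with the RNA and less RNA per cell cannot be told apart.

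**Figure D1:**
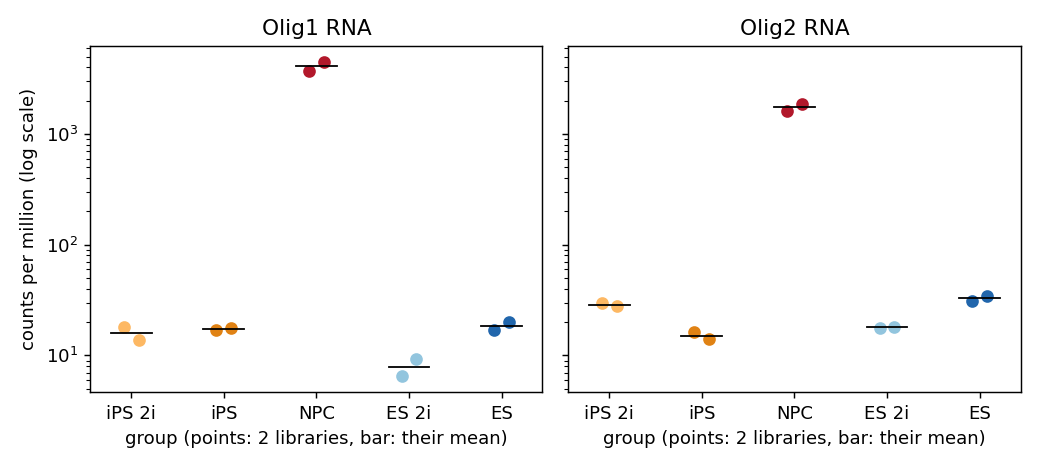
RNA of Olig1 and Olig2 in CPM on a log axis, for each group from iPS 2i to ES; points are single libraries and bars are group means of 2 libraries. Both genes lie between 1601 and 4506 CPM in NPC and at 34.8 CPM or less in every library of the other groups.

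In order of level, Olig1 ran from NPC through ES, iPS and iPS 2i to ES 2i. The neighbours iPS and ES did not pass the test (log2 difference -0.07 ± 0.19 SE, edgeR adjusted p = 0.795), nor did iPS 2i and iPS (-0.14 ± 0.20 SE, edgeR adjusted p = 0.601). Olig2 ran from NPC through ES, iPS 2i and ES 2i to iPS. There iPS 2i and ES did not pass the test (-0.19 ± 0.15 SE, edgeR adjusted p = 0.367), nor did iPS and ES 2i (-0.25 ± 0.17 SE, edgeR adjusted p = 0.202). That last difference passed in 3 of 18 alternatives: with scaling by total counts alone, without NPC replicate 2 and without ES replicate 2. The order of the pluripotent groups differed between the genes. For Olig1, iPS 2i and ES, which are not neighbours in its order, did not pass either (-0.21 ± 0.19 SE, edgeR adjusted p = 0.428). Both genes passed in NPC against ES 2i, with log2 differences of 9.03 for Olig1 and 6.61 for Olig2, and in iPS 2i against NPC, at -8.03 and -5.93. In iPS against ES 2i, Olig1 passed at 1.14 (edgeR adjusted p = 7.98e-06). Of 11031 models tested, 64.9% passed in NPC against ES 2i, 59.4% in iPS 2i against NPC, 32.8% in iPS 2i against ES, and 59.3% in iPS against ES 2i.

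Between NPC and ES, Olig1 rose by 7.83 ± 0.20 (SE) on the log2 scale, a 227-fold difference, and Olig2 by 5.74 ± 0.16, a 53.6-fold difference (edgeR adjusted p = 1.88e-24 and 1.55e-23). Olig1 was the 100th and Olig2 the 257th of 11031 models ranked from the largest rise. Of all models, 27.3% rose and 33.7% fell, so a call in this comparison was common and the size of the differences is the more specific measure. In iPS against NPC, Olig1 fell by 7.89 and Olig2 by 6.85 on the log2 scale (edgeR adjusted p = 3.36e-24 and 2.82e-24), where 29.3% of models rose and 22% fell. In iPS against ES, Olig2 fell by 1.11 ± 0.17 (SE, edgeR adjusted p = 1.29e-06), a 2.16-fold difference, where 25.9% of models rose and 26.9% fell.

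Olig1 and Olig2 were not present in a fixed ratio. Olig1 had 2.30 and 2.39 reads per Olig2 read in NPC. This ratio was 0.607 and 0.502 in iPS 2i, 1.04 and 1.26 in iPS, 0.364 and 0.511 in ES 2i, and 0.545 and 0.576 in ES. The NPC libraries were above all others, the iPS libraries came next, and the rest lay below 0.61. It is a ratio of reads, not of RNA molecules, since the models differ in length, and only its change between groups is interpretable.

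The response to 2i was compared between cell lines. In ES 2i against ES, both genes fell, Olig1 by 1.20 ± 0.18 and Olig2 by 0.86 ± 0.15 on the log2 scale (SE, edgeR adjusted p = 6.75e-06 and 3.41e-05), where 11.3% of models rose and 13.2% fell. In iPS 2i against iPS, Olig2 rose by 0.92 ± 0.17 (SE, edgeR adjusted p = 3.96e-05), where 21.1% of models rose and 21.5% fell. The test of the difference between these responses passed for both genes, at 1.06 ± 0.27 for Olig1 and 1.79 ± 0.22 for Olig2 (SE, log2, edgeR adjusted p = 0.00314 and 3.78e-07), where 15.1% of models were higher and 12.2% lower. In iPS 2i against ES 2i, Olig1 was higher by 1.00 ± 0.19 and Olig2 by 0.68 ± 0.15 (SE, log2, edgeR adjusted p = 0.000212 and 0.00107), where 13.7% of models rose and 11.6% fell. For Olig1, the difference between the responses and the iPS 2i against ES 2i difference did not pass with limma on the authors' deposited expression table (adjusted p = 0.113 and 0.0724), and for Olig2 the iPS 2i against ES 2i difference did not either (0.0801).

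Other models followed the same pattern over the 10 RNA libraries, and were named as the 5 with the highest Pearson correlation of log2 CPM among 5031 models with a mean log2 CPM of at least 3. For Olig1 these were Mtmr11 (r = 0.996), Slc25a23 (0.995), Fzd1 (0.992), Serpine2 (0.992) and 1810063B07Rik (0.992). For Olig2 they were Mageh1 (r = 0.998), Fam181b (0.996), Olig1 itself (0.986), Pcdhga7 (0.985) and Igfbp2 (0.983). Olig2 ranked 15th among the models most like Olig1. Fzd1 is a Wnt receptor, Serpine2 a secreted protease inhibitor and Igfbp2 a binding protein of insulin-like growth factors. The correlations rest mainly on the gap between the NPC libraries and the other 8.

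Most of the other measured genes of oligodendrocyte precursors were also higher in NPC than in ES, some of them at low levels. The list had 16 genes, of which 8 including Olig1 and Olig2 carried a symbol in the authors' deposited expression table and were tested; Pdgfra and Nkx2-2 were among those not analysed here. In NPC against ES, 7 of the 8 rose, Olig1 and Olig2 among them, and 0 fell, against 27.3% and 33.7% of all models. The median over the 8, which includes both members, was 5.96 on the log2 scale against -0.21 over all models. Bcan and Ncan, which encode proteoglycans of the brain matrix, rose by 8.73 and 6.18, to 241 and 1826 CPM in NPC against 0.648 and 25.2 CPM in ES. Sox8 and Sox10, SOX-family factors of the lineage, rose by 7.30 and 3.24, to 401 and 8.13 CPM in NPC against 2.30 and 0.769 CPM in ES. Cspg4, the NG2 proteoglycan of precursor cells, rose by 4.87, to 8.55 CPM in NPC against 0.376 CPM in ES, which is 4 and 2 reads in the ES libraries. Zfp488, a zinc finger factor of the lineage, had 26.6 CPM in NPC and 24.1 CPM in ES (log2 difference 0.21, edgeR adjusted p = 0.423).

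In iPS against NPC, 0 of the 8 rose and 8 fell, Olig1 and Olig2 included, with a median of -6.90. There 29.3% of all models rose and 22% fell. In iPS against ES, 1 rose and 2 fell, with a median of -0.38, where 25.9% of all models rose and 26.9% fell. Cspg4 rose by 2.33, while Ncan fell by 0.78 and Olig2 as given above. The Cspg4 rise did not pass without iPS replicate 1 or without ES replicate 1. In ES 2i against ES, 7 of the 8 fell and 0 rose, where 13.2% of all models fell and 11.3% rose. The median was -1.63, or -1.10 when a member at 0 was set to its floor, against 0.00 over all models. Beside Olig1 and Olig2 the genes that fell were Cspg4, Sox10, Bcan, Ncan and Sox8, of which Ncan fell by 2.05 and Sox8 by 0.99. In iPS 2i against iPS, 1 rose, Olig2, and 2 fell, Cspg4 by 2.79 and Ncan by 0.47. There 21.1% of all models rose and 21.5% fell. In iPS 2i against ES 2i, 3 were higher, Olig1, Olig2 and Ncan at 0.80, and Zfp488 was lower at -0.57. There 13.7% of all models were higher and 11.6% lower.

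Few genes of the maturing oligodendrocyte were measured, 4 of a list of 22. In NPC against ES 0 of the 4 rose and 4 fell, or 2 without NPC replicate 2, where 33.7% of all models fell. Nkx6-2, a homeodomain factor, fell by 3.13, Mbp, myelin basic protein, fell by 2.103 and the tetraspanin gene Tspan2 fell by 1.86 on the log2 scale. Gm98, the myelin regulatory factor gene under its older symbol, had 0 reads in NPC and was at least 1.95-fold lower there than in ES. The list summed to 4.19 and 6.37 CPM in NPC, against 33.6 and 45.0 CPM in ES. These are low levels in every group, at most 45.0 CPM for the list.

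Pathways that act on the Olig genes in the embryo were counted against the 27.3% of all models that rose and the 33.7% that fell between NPC and ES. Of 9 hedgehog pathway genes tested 3 rose and 2 fell, near those shares: Gas1, a hedgehog co-receptor, rose by 6.09 and Smo, the signal transducer, by 2.59, while Gli1, a transcription factor and a target of the pathway, fell by 7.41, to 0.563 CPM in NPC against 77.0 CPM in ES. Of 4 ventral and dorsal patterning factors, Emx2 rose by 3.85 and Irx5 by 3.23, and Nkx6-2 fell as given above. Of 9 helix-loop-helix partners and inhibitors 5 rose and 4 fell, led by Neurod1 at -3.65, the E-protein Tcf12 at 2.75 and the inhibitor Id3 at 2.65. These rises numbered 2 without ES replicate 1, and 3 without NPC replicate 2, without either iPS replicate or without either iPS 2i replicate. Of 8 Notch pathway genes 6 rose and 1 fell: Lfng, which modifies Notch, rose by 6.71, the ligand Dll1 rose by 4.20 and the ligand Jag2 fell by 4.15.

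Markers of other cells moved beside these in NPC against ES, where 27.3% of all models rose and 33.7% fell. Of 9 neural progenitor genes 8 rose and 1 fell, with Pou3f3 at 8.64, Sox3 at 5.68 and Nes, nestin, at 4.00. All 4 measured astrocyte genes of a list of 14 rose, or 2 without ES replicate 1, led by Slc1a3 at 3.39, Id3 as above and S100b at 2.48. The list summed to 254 and 310 CPM in NPC against 44.7 and 45.6 CPM in ES, of which Id3, also in the helix-loop-helix list, held 263 CPM in NPC and 42.2 CPM in ES. The other 3 averaged 4.11 to 9.96 CPM in NPC. Of 6 neuron genes 1 rose, Syp at 2.88, and 3 fell, with Stmn2 at -8.82 and Tubb3 at -2.97; their sum was 78.7 and 82.0 CPM in NPC against 428 and 488 CPM in ES. Of 2 endothelial genes Kdr fell by 2.096, a call lost without either NPC replicate or without ES replicate 1, and the list stayed between 1.19 and 5.96 CPM over the 10 libraries. None of the 11 microglia genes of the list carried a symbol in the table. Of 7 fibroblast genes 1 rose and 6 fell, among them Tagln at -7.88 and Col1a2 at -6.50, and Twist2, with 0 reads in NPC, was at least 2.47-fold lower there.

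Fibroblast markers, the genes of feeder cells, also differed between the pluripotent groups that the Olig RNA comparisons use. They summed to 910 and 923 CPM in iPS 2i, 2748 and 2952 CPM in iPS, 74.5 and 105 CPM in NPC, 439 and 449 CPM in ES 2i, and 1207 and 1394 CPM in ES. In iPS against ES, 6 of 7 rose and 0 fell, where 25.9% of all models rose and 26.9% fell. Their part in the Olig differences among the pluripotent groups was not tested.

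The other genes of the 1.145 Mb 5C region did not share the rise of Olig1 and Olig2 in size. They comprised 13 models of 9 symbols, 12 of them tested. In NPC against ES, 4 rose and 3 fell, with a median of 0.24 on the log2 scale, near the 27.3% and 33.7% of all models. Urb1, a ribosome biogenesis gene, fell by 2.58, to 34.0 CPM in NPC against 224 CPM in ES, and Ifngr2, an interferon gamma receptor chain, rose by 2.22, to 92.6 CPM in NPC against 21.1 CPM in ES. Itsn1, an endocytic scaffold gene, fell by 1.35 in 1 of its 3 models, which overlap and can share reads. Without NPC replicate 2, 1 model rose in place of 4. In iPS against NPC, 1 rose and 5 fell, or 2 fell without NPC replicate 1 and 3 without iPS replicate 1. Of all models, 29.3% rose and 22% fell in iPS against NPC. In iPS against ES, 2 rose and 6 fell, where 25.9% of all models rose and 26.9% fell. Ifngr2 was at 1.22, AK090163 at -1.32 and Itsn1 at -1.30. The falls numbered 3 without iPS replicate 1, and 1 model rose without iPS replicate 2 or without ES replicate 1.

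Contacts were read by 5C, in which crosslinked chromatin is cut with HindIII, neighbouring ends are ligated, and primers at fragment ends count each ligated pair. The pairs used join a forward with a reverse primer. Counts of primers of the same direction numbered 2553 to 17106 per library in the Olig region, beside 1561845 to 3588331 counts of forward with reverse primers. The ES libraries held 17106 and 10700 same-direction counts, and the other libraries at most 4953. The windows hold 11 primer fragments, 6 around Olig2 and 5 around Olig1. The fragments with the gene starts, chr16:91223418-91228260 for Olig2 and chr16:91267101-91274338 for Olig1, both carry reverse primers, so their direct contact was not measured (0 or 1 counts in each library). Within a library, each pair was set against all pairs that share its region and its distance class, with 20 such classes. Its count over the mean count of those pairs is called the distance-scaled contact below, and 1 is the average of the region at that distance.

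The distance-scaled contact of the promoter windows was higher in NPC than in any other group. Over the 1300 pairs, the distance-scaled contact was 0.862 and 0.829 in iPS 2i, 0.766 and 0.888 in iPS, 1.72 and 1.49 in NPC, 0.920 and 0.915 in ES 2i, and 0.676 and 0.699 in ES. The NPC libraries lay above the regional average of 1 and the other 8 below it. The rest of the region lay between 0.948 and 1.03 in all libraries. The scaling largely fixes this, since the rest holds 14675 of the 15975 pairs tested in the region.

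In NPC against ES, 444 of the 1300 pairs (34.2%) rose and 32 (2.46%) fell at an edgeR adjusted p under 0.05, with a median log2 difference of 0.95. Of all 75889 pairs tested, 8.54% rose and 9.32% fell, and of 14675 other pairs of the same region 6.49% rose and 12.8% fell. For the Olig1 window, 217 of 586 pairs rose and 9 fell, and for the Olig2 window 242 of 729 rose and 23 fell. On the fragments of the gene starts, 30 of 133 pairs rose and 3 fell for Olig1, and 32 of 105 rose and 2 fell for Olig2. Without ES replicate 2 the rises over both windows numbered 265 and the falls 18, and without ES replicate 1 the rises numbered 282. Both NPC libraries were above both ES libraries in 817 of the 1300 pairs and below both in 137. The same count was not taken over all pairs, so these numbers have no background share beside them.

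These counts depend on how a fragment's own yield is treated. When the offset also held the total of each fragment in each library, 29 pairs rose and 200 fell, with a median of -0.51. Under the same offset 2922 of all 75889 pairs rose and 6250 fell, with a median of -0.14. The fragment total itself contains the window's contacts. This version therefore removes any change common to all pairs of a fragment and centres the rest. Recovery of a fragment apart from its contacts was not measured, and its part in the difference was not tested. The difference was not the same with all partners: seen from the Olig2 start, the median log2 difference was 2.13 over 30 pairs at 50 to 100 kb downstream and 0.29 over 26 pairs at 450 to 500 kb upstream. With the region total alone in place of the distance classes, 290 pairs rose and 99 fell.

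**Figure D2:**
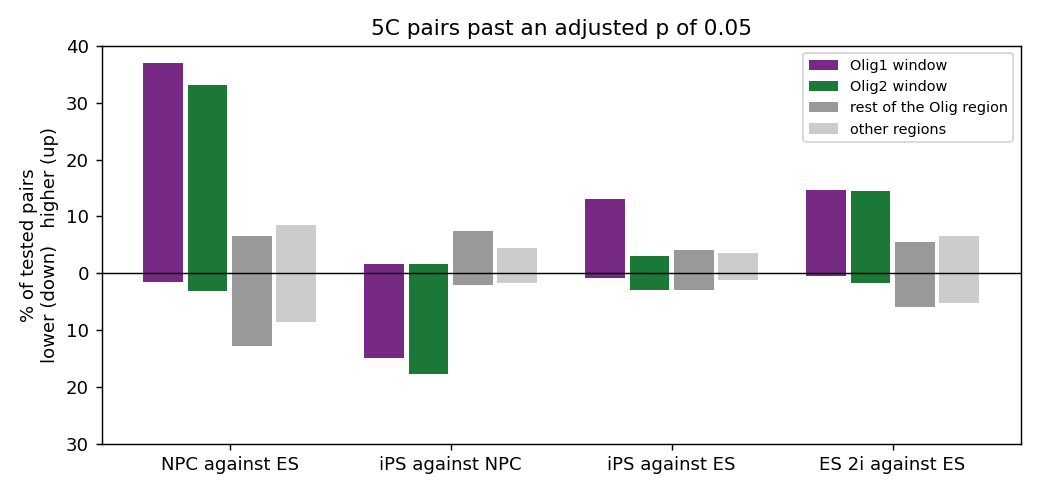
Percentage of tested 5C pairs that rose (bars up) or fell (bars down) at an edgeR adjusted p under 0.05 in 4 group comparisons, for the pairs of each Olig window, the rest of the Olig region and the other regions. In NPC against ES, 37.0% of Olig1 and 33.2% of Olig2 window pairs rose, against 6.49% of the rest of the region.

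The gain was uneven over the 11 window fragments. The 3 with most calls held 275 of the 444 rises. They were chr16:91263998-91266859 in the Olig1 window, with 109 of 133 pairs higher, and chr16:91230343-91235133 and chr16:91228261-91229689 in the Olig2 window, with 84 of 136 and 82 of 114. The fragment of the Olig1 window had a distance-scaled contact of 1.06 and 0.942 in iPS 2i, 1.02 and 1.06 in iPS, 2.52 and 2.13 in NPC, 1.01 and 1.11 in ES 2i, and 0.287 and 0.371 in ES. It was low in ES as well as high in NPC. Without these 3 fragments, 169 of 917 pairs (18.4%) rose and 32 fell, with a median of 0.52. The fewest rises, 11 each, were on chr16:91235134-91238489 of the Olig2 window (122 pairs, 4 falls) and chr16:91266860-91267053 of the Olig1 window (83 pairs, 3 falls).

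The start fragment of Olig1 had a distance-scaled contact of 1.25 and 0.877 in iPS 2i, 0.812 and 0.956 in iPS, 2.46 and 1.75 in NPC, 1.23 and 1.12 in ES 2i, and 1.01 and 1.03 in ES. That of Olig2 was lower in every library, at 0.518 and 0.387 in iPS 2i, 0.319 and 0.555 in iPS, 1.31 and 0.874 in NPC, 0.465 and 0.558 in ES 2i, and 0.262 and 0.256 in ES. For both start fragments, both NPC libraries were above the other 8.

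**Figure D3:**
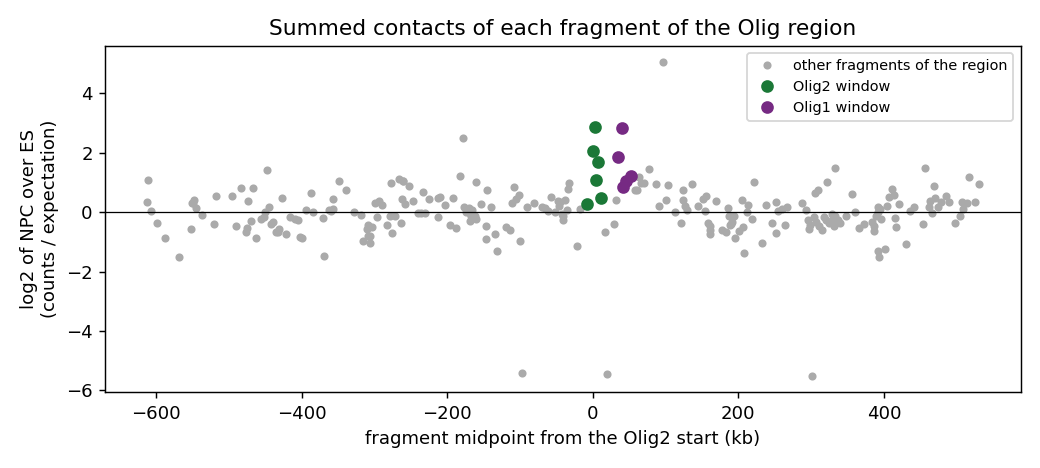
Log2 ratio of NPC over ES in the summed contacts of each primer fragment of the Olig region (counts over expectation), by distance of the fragment's midpoint from the Olig2 start; coloured points are the 11 window fragments. All 11 lie above 0, as do all fragments ranked up to 146th of 272. The grey points near 5 and below -5 are partners nearly absent from ES or NPC.

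Over both windows, the share of pairs that rose fell with their distance, as did the share over all regions. Of pairs up to 50 kb long, 54.3% rose in NPC against ES (12.9% over all regions), and of pairs of 50 to 150 kb 52.3% (10.9% over all regions). At 150 to 300 kb it was 30.9% (8.81% over all regions) and beyond 300 kb 24.5% (6.48% over all regions). The median log2 differences in these bands were 1.13, 1.26, 0.85 and 0.81. By 50 kb step the median was uneven. From the Olig1 start it was 1.38 over 22 pairs at 0 to 50 kb downstream. It was 0.40 over 44 pairs at 250 to 300 kb and 2.28 over 19 pairs at 400 to 450 kb downstream. Seen from the Olig2 start, the contact of NPC peaked 100 to 150 kb downstream, at 6.70 and 5.18 in NPC and 2.89 and 2.72 in ES. The median log2 difference was smaller there, at 1.19, than at 50 to 100 kb downstream, at 2.13. At 50 to 100 kb downstream the distance-scaled contact was 5.38 and 4.01 in NPC against 1.00 and 1.03 in ES. At 50 to 100 kb upstream it was 4.35 and 3.45 in NPC against 1.23 and 1.21 in ES. Seen from the Olig1 start, it was 3.84 and 3.10 in NPC against 1.15 and 1.03 in ES at 50 to 100 kb downstream, and 3.34 and 2.67 in NPC against 0.76 and 0.74 in ES at 50 to 100 kb upstream. In each of these steps both NPC libraries were above both ES libraries.

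**Figure D4:**
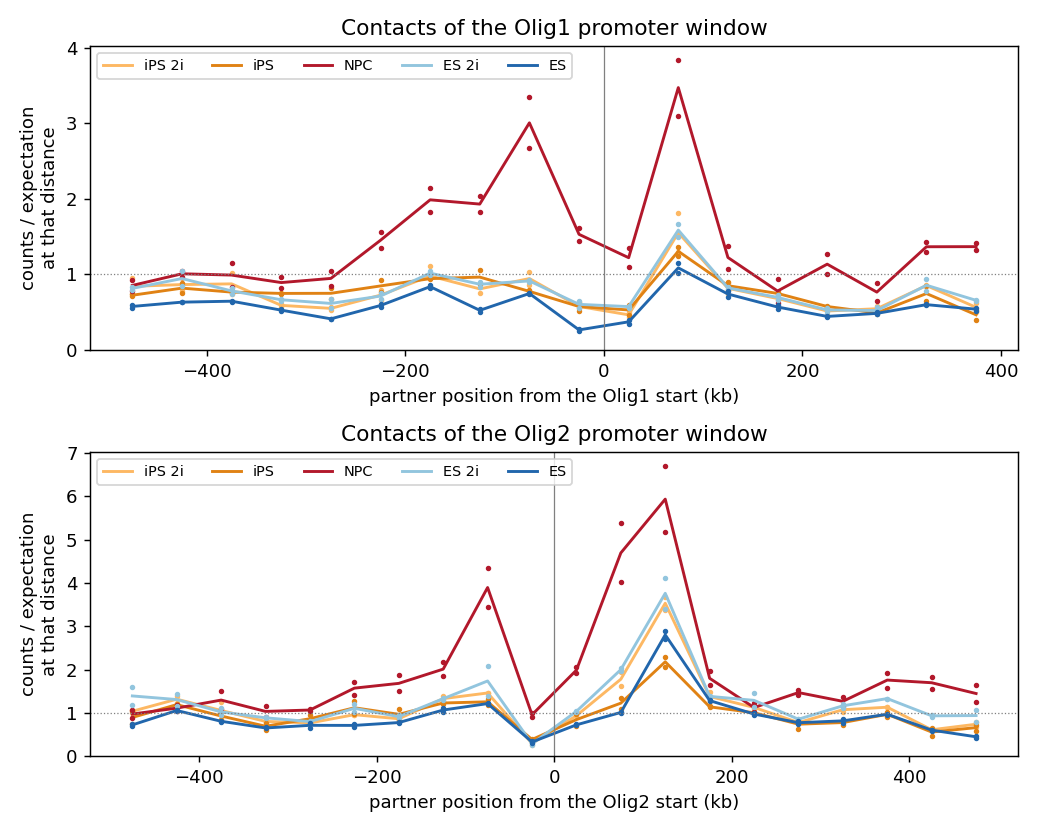
Distance-scaled contact of the Olig1 window (top) and the Olig2 window (bottom) by position of the partner, in 50 kb steps from each gene start; points are libraries, lines are group means, and the dotted line at 1 is the regional average. In the step with the highest NPC value, NPC lies at 3.84 and 3.10 for Olig1 and at 6.70 and 5.18 for Olig2, above every other library.

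The pairs that join the windows had a higher distance-scaled contact in NPC, a difference that depended on the offset. The 15 pairs that join them had a summed distance-scaled contact of 2.05 and 1.44 in iPS 2i, 0.984 and 1.25 in iPS, 10.5 and 8.08 in NPC, 1.90 and 1.74 in ES 2i, and 1.06 and 1.01 in ES. All 15 rose in NPC against ES and 0 fell, with a median of 3.29 on the log2 scale and a range of 1.05 to 5.38. Of all 75889 pairs, 8.54% rose and 9.32% fell, and of those up to 50 kb long 12.9% rose and 23.1% fell. The 15 pairs are combinations of the 11 window fragments and are not independent. In iPS against NPC, 0 of the 15 rose and 12 fell, where 4.9% of all pairs rose and 1.99% fell. In iPS against ES, 1 of the 15 rose and 1 fell, where 3.72% of all pairs rose and 1.46% fell. With fragment totals in the offset, 2 of the 15 rose and 1 fell in NPC against ES, and 6 fell in iPS against NPC.

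A share of reads does not depend on the overall yield of a window. Of the counts of the Olig2 window, 6.74% and 4.96% went to the Olig1 window in iPS 2i, 4.45% and 4.47% in iPS, 18.0% and 16.8% in NPC, 5.52% and 5.44% in ES 2i, and 4.67% and 4.65% in ES. Of the counts of the Olig1 window, 10.9% and 9.24% went to the Olig2 window in iPS 2i, 6.71% and 7.05% in iPS, 25.6% and 24.7% in NPC, 10.3% and 9.22% in ES 2i, and 9.21% and 9.07% in ES. Both shares in NPC were above those of every other library. They do still depend on the yield of the window at the other end.

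**Figure D5:**
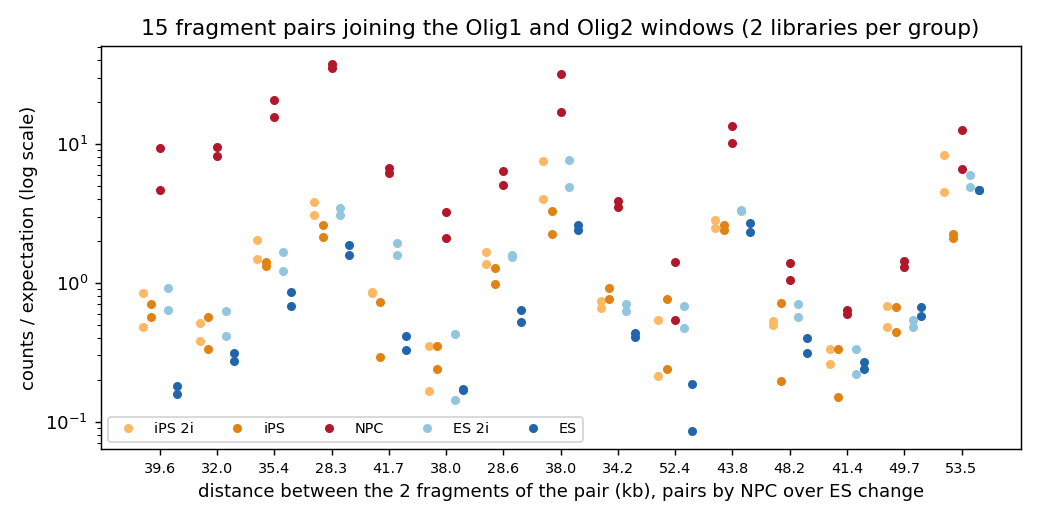
Distance-scaled contact (log axis) of the 15 primer pairs that join the windows, ordered from the largest to the smallest NPC over ES difference and marked by the distance between their fragments; points are libraries, coloured by group. All 15 pairs rose in NPC against ES, by 5.38 at the left end and 1.05 at the right end on the log2 scale.

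The pair with most counts joined chr16:91230343-91235133, downstream of Olig2, with chr16:91258012-91263997, upstream of Olig1. It had 498 and 462 counts in iPS 2i, 412 and 473 in iPS, 7883 and 8411 in NPC, 435 and 585 in ES 2i, and 668 and 589 in ES. In NPC against ES its log2 difference was 4.40 ± 0.26 (SE, edgeR adjusted p = 1.27e-09), and with fragment totals it was 0.65 (edgeR adjusted p = 0.00674). The pair of the Olig2 start fragment with chr16:91263998-91266859 rose most, by 5.38 ± 0.42 (SE, edgeR adjusted p = 3.75e-08), and with fragment totals the difference was 0.39 (edgeR adjusted p = 0.304). It had 111 and 73 counts in iPS 2i, 109 and 126 in iPS, 1971 and 1121 in NPC, 90 and 155 in ES 2i, and 64 and 59 in ES. The NPC replicates of this pair differed more than those of the first. The Olig1 start fragment rose with chr16:91228261-91229689 by 4.12 ± 0.38 (SE, edgeR adjusted p = 3.75e-07), with 1299 and 1597 counts in NPC against 147 and 123 in ES. With fragment totals that difference was 0.11 (edgeR adjusted p = 0.756). With chr16:91211054-91223417 it rose by 1.05 ± 0.31 (SE, edgeR adjusted p = 0.0221), the smallest of the 15, and with fragment totals this turned into a fall, at -0.81 (edgeR adjusted p = 0.00229).

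Outside the joined pairs, the largest differences in NPC against ES followed partner fragments that were nearly absent from a group. The 3 largest rises, at 7.59, 7.53 and 5.85, all had the partner chr16:91318836-91324345, 95.8 kb downstream of the Olig2 start. The second of them had 532 and 653 counts in NPC, 2 and 8 in ES, and 247 and 303 in ES 2i, which is the same line. This partner was low in ES in its other pairs too, where its distance-scaled contact was 1.86 and 1.78 in NPC against 0.056 and 0.057 in ES. The 4 largest falls all had the partner chr16:91242594-91247280, between the genes. Its pair with chr16:91235134-91238489 had 0 counts in both NPC libraries and 279 and 192 in ES, at least 81.0-fold lower in NPC with 3 counts per library as the floor. Its pair with the Olig1 start fragment had 0 in NPC and 220 and 174 in ES, at least 68.3-fold lower. In its other pairs this partner had a distance-scaled contact of 0.009 and 0.008 in NPC against 0.264 and 0.227 in ES. With fragment totals in the offset, the first 2 of these rises came to -0.11 and -0.21 and no longer passed (edgeR adjusted p = 0.940 and 0.824). The third turned into a fall, at -0.94 (edgeR adjusted p = 0.0181). The first 2 falls stayed at -10.50 and -10.29 as fitted values (edgeR adjusted p = 0.000445 and 0.000834).

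Under 5% of the highest group's contact remained in the lowest group for 4 partners, and with these left out 20 pairs fell in place of 32. The number of partners tested was 266, of which 159 had at least 1 higher window pair, and the median over window pairs was above 0 for 225. For 23 partners every tested window pair rose. A matching count for sets of fragments outside the windows is not given, so these numbers have no background share beside them. The fragment chr16:91299840-91306324, 33.1 kb downstream of the Olig1 start, rose with all 6 window fragments tested. Its distance-scaled contact with the windows was 11.7 and 6.45 in NPC against 0.809 and 0.822 in ES, and with the rest of the region 1.11 and 0.739 in NPC against 0.461 and 0.504 in ES. The fragment chr16:91350573-91353041, 81.8 kb downstream of the Olig1 start, also rose with 6 of 6. It had 11.02 and 6.89 in NPC against 2.80 and 2.23 in ES with the windows, and 2.104 and 1.78 in NPC against 1.86 and 1.85 in ES with the rest. Neither of these fragments overlaps a gene of the authors' deposited expression table.

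In iPS against NPC more window pairs fell than rose. Of the 1300 pairs, 22 rose and 204 fell, with a median of -0.56, where 4.9% of all pairs rose and 1.99% fell. Without iPS replicate 1 the falls numbered 73, and without NPC replicate 1 they numbered 119. With fragment totals in the offset, 159 rose and 45 fell, where 5375 of all 75889 pairs rose and 2551 fell. With the region total alone, 109 rose and 133 fell. The largest falls among pairs with a mean of at least 50 counts were at the partner chr16:91299840-91306324, with log2 differences of -4.74 with chr16:91258012-91263997, -4.69 with chr16:91229690-91230342 and -4.54 with the Olig2 start fragment. The pair with chr16:91229690-91230342 had 68 and 92 counts in iPS and 2428 and 1581 in NPC. A fall of 4.70 joined chr16:91228261-91229689 to chr16:91191864-91193395, upstream of Olig2, with 37 and 46 counts in iPS and 1123 and 1505 in NPC. The 4 largest rises all had the partner between the genes that was nearly absent in NPC, and without the 4 partners nearly absent from a group 8 pairs rose in place of 22.

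In iPS against ES the windows were higher, mostly through 1 fragment. Of the 1300 pairs, 98 rose and 25 fell, with a median of 0.43, where 3.72% of all pairs rose and 1.46% fell. In the Olig1 window 77 rose and 5 fell, and in the Olig2 window 22 rose and 21 fell. The fragment chr16:91263998-91266859 held 71 of the rises, and without it 27 rose and 25 fell. Without ES replicate 1 the rises numbered 13 and the falls 3, without ES replicate 2 they numbered 42 and 7, and without iPS replicate 2 also 42 and 7. Without iPS replicate 1 the falls numbered 8. With fragment totals, 0 rose and 0 fell, where 12 of all 75889 pairs rose and 11 fell. The 4 largest rises, at 6.71, 5.27, 5.23 and 4.10, all had the partner that was nearly absent in ES. The largest falls were chr16:90916299-90916640 with the Olig1 start fragment by 2.55, chr16:91535758-91538025 with chr16:91229690-91230342 by 2.47, and chr16:91050140-91053884 with chr16:91229690-91230342 by 2.11 and with the Olig1 start fragment by 2.09. The first of these had 17 and 15 counts in iPS and 178 and 154 in ES.

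The 444 pairs that rose in NPC against ES had a median distance-scaled contact of 0.724 in iPS 2i, 0.780 in iPS, 1.82 in NPC, 0.883 in ES 2i and 0.354 in ES. They were chosen for the difference between NPC and ES, and the comparisons share those libraries, so the levels are given side by side only. Of them, 176 fell and 0 rose in iPS against NPC, 94 rose and 2 fell in iPS against ES, and 171 rose and 2 fell in ES 2i against ES.

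In ES cells, more window pairs were higher than lower with the 2i medium. In ES 2i against ES, 184 of the 1300 pairs rose and 15 fell, with a median of 0.52, where 6.52% of all pairs rose and 5.26% fell. Of the 15 joined pairs 7 rose and 0 fell. Without ES replicate 2 the rises numbered 51 and the falls 3, and without ES replicate 1 they numbered 63 and 5. Without ES 2i replicate 1 they numbered 76 and 5, and without ES 2i replicate 2 the rises numbered 89. The fragment chr16:91263998-91266859 held 68 of the rises, and without it 116 rose. With fragment totals 0 rose and 16 fell, where 316 of all 75889 pairs rose and 511 fell. The RNA of both genes fell in the same comparison, as given above. The ES 5C libraries were also deeper than those of ES 2i, and the part of depth was not tested.

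In iPS 2i against iPS, 0 window pairs rose and 0 fell by edgeR, where 0.0474% of all pairs rose and 0.00395% fell. At an unadjusted p under 0.05, 72 window pairs rose and 41 fell, where 2714 of all 75889 pairs rose and 3271 fell. DESeq2 called 15 rises and 0 falls among the window pairs, and 392 and 163 among all pairs. In iPS 2i against ES 2i, 0 rose and 0 fell by edgeR among the window pairs and 0% among all pairs. At an unadjusted p under 0.05, 13 window pairs were higher and 39 lower, where 2500 of all pairs were higher and 1373 lower. DESeq2 called 0 among the window pairs, and 5 rises and 0 falls among all pairs. The difference between the 2i responses of iPS and ES passed in 10 pairs upward and 31 downward, where 0.568% of all pairs were higher and 1.37% lower. Without the fragment chr16:91263998-91266859, 9 were lower. The higher and lower pairs numbered 0 and 8 without iPS replicate 2, 3 and 14 without iPS 2i replicate 1, 5 and 16 without iPS 2i replicate 2, 3 and 11 without ES 2i replicate 2, 1 and 11 without ES replicate 1, and 3 and 18 without ES replicate 2. The higher pairs numbered 6 without iPS replicate 1 and 3 without ES 2i replicate 1.

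The authors' deposited tables describe the same region in bins of 20 kb stepped by 4 kb. In their table of classes, made from the 6 iPS, NPC and ES libraries, 693 of 941 bin pairs of either window (73.6%) were classed as present in NPC only, 245 as background and 3 as shared by ES and NPC. In the rest of the region 600 of 4986 bin pairs (12.03%) were classed as NPC only. All 33 bin pairs that join the windows were NPC only. No bin pair of either window was classed as constitutive, iPS only, ES only, shared by NPC and iPS or shared by ES and iPS. For the bin pair of the gene starts, 44 kb apart, the authors' deposited distance-corrected log values were 0.88 and 0.54 in iPS 2i, 0.14 and 0.56 in iPS, 2.95 and 2.64 in NPC, 0.92 and 0.89 in ES 2i, and 0.09 and -0.05 in ES. The base of this logarithm is not given in the sources used here. By the authors' deposited values, both NPC libraries were above all others, and the bins cover the starts that no primer pair joins directly.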

How the data were processed

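RNA-seq and 5C were measured in 10 libraries each. Per the labels' protocols, 350 ng of total RNA went into stranded, ribosomal-RNA-depleted libraries read for 75 cycles per end, and 5C templates were cut with HindIII. The authors deposited raw counts per UCSC transcript model and per primer pair; the submitters' processing notes name TopHat2 2.1.0, HTSeq, Bowtie and mm9, and the counting mode is not given in the sources used here. Their deposited expression table holds log2 values, each log2 of the count plus 1 with 1 added constant per library, for 11767 models with 10334 symbols; genes without a symbol there were not analysed here. Their deposited binned 5C values are distance-corrected log scores. Per the file headers they had been quantile-normalized. Their classes of bin pairs rest on 6 libraries.

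Counts were tested with edgeR 4.0.16 in R 4.3.3 (quasi-likelihood test, all 10 libraries of an assay in 1 fit, Benjamini-Hochberg over all models or pairs, threshold 0.05). RNA was scaled by TMM after filterByExpr, which kept 11031 models and left out 44388. Reads outside models (26.5 to 86.6%) and ambiguous reads stayed out of library sizes. 5C pairs with a mean of at least 10 counts (75889 tested, 20578 left out) had the library's total in their region and 1 of 20 distance strata as offset. CPM are on TMM-scaled library sizes. Alternatives used DESeq2 1.42.0, limma 3.58.1, other offsets and filters, a replicate block and leaving out each library. The scripts were tested on simulated data.

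The members, the lists (oligodendrocyte precursor, maturing oligodendrocyte, hedgehog, patterning, helix-loop-helix, Notch, neural progenitor, astrocyte, neuron, microglia, endothelial, fibroblast, pluripotency) and the tests were chosen with earlier results of these data known. Genes named were the 5 models most like each member, all called precursor genes, the 3 called genes with the largest change in NPC against ES of the other lists and of the neighbours, and for contacts the 4 largest rises and falls among pairs with a mean of at least 50 counts and all 15 pairs joining the windows. The least and most affected fragments and single partners beyond that rule were named after their values were seen. Floors of 3 counts and p-values cover counting error and spread between libraries only.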

Additional observations from a re-analysis of the deposited data

Results flagged for a closer look

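The RNA of both genes responded differently to 2i in the cell lines. For Olig2, the response of iPS cells minus that of ES cells was 1.79 on the log2 scale. Olig2 had 28.7 ± 1.43 CPM in iPS 2i against 15.1 ± 1.65 CPM in iPS, and 17.9 ± 0.224 CPM in ES 2i against 32.9 ± 2.59 CPM in ES (SD, n = 2 each). The directions were opposite, and in each line the libraries with and without 2i did not overlap. For Olig1 the difference of the responses was 1.06 on the log2 scale. Olig1 had 15.97 ± 2.93 CPM in iPS 2i against 17.2 ± 0.441 CPM in iPS, and 7.84 ± 1.96 CPM in ES 2i against 18.5 ± 2.16 CPM in ES (SD, n = 2 each). Here the libraries overlapped in iPS and not in ES. With limma on the authors' deposited log2 table the Olig1 difference was 1.08 and did not pass (adjusted p = 0.113, the highest of its 18 alternatives), while every alternative of the Olig2 difference passed.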

How the results depend on the processing

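For NPC against ES and iPS against NPC, the RNA differences of both genes passed under all 18 alternatives, with log2 values of 5.53 to 5.83 and -6.96 to -6.70 for Olig2. With limma on the authors' deposited log2 table, the iPS 2i against ES 2i differences were 0.65 for Olig2 and 1.00 for Olig1 and the Olig1 difference of the 2i responses 1.08, none past the threshold; the cause was not tested. Leaving out single libraries put Olig1 in iPS 2i against iPS between -0.30 and 0.11. Scaling by total counts alone shifted the median of all models by -0.15 in iPS against ES and by 0.13 in iPS 2i against iPS, and changed no call of Olig1 or Olig2 in these comparisons.

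The 5C counts of the 1300 pairs, given as higher and lower, moved with the offset in most comparisons. With fragment totals they were 29 and 200 in NPC against ES, 159 and 45 in iPS against NPC, 0 and 0 in iPS against ES, 0 higher in ES 2i against ES, and 0 and 0 for the difference of the 2i responses; of the joined pairs 2 and 1 passed in NPC against ES and 6 fell in iPS against NPC. With region totals they were 290 and 99 in NPC against ES and 109 and 133 in iPS against NPC, with 16 lower in iPS against ES and 44 lower in ES 2i against ES. A minimum mean of 50 counts gave 281 and 21 in NPC against ES and 8 higher in iPS against NPC, from fewer pairs. Start fragments alone, also fewer pairs, gave 62 and 5, 4 and 45, 5 and 5, and 19 and 1 in the same order of comparisons, and 2 and 3 for the difference of the 2i responses. DESeq2 gave 42 lower in iPS against ES and 15 higher in iPS 2i against iPS. For the difference of the 2i responses it gave 17 and 64. Over all pairs these DESeq2 counts were 1810, 392, and 1162 and 2084. A fit to the compared groups alone gave 28 lower in ES 2i against ES. Over all 75889 pairs, fragment totals gave 2922 higher and 6250 lower in NPC against ES, and 5375 and 2551 in iPS against NPC. They gave 12 and 11 in iPS against ES, and 316 and 511 in ES 2i against ES. For the difference of the 2i responses they gave 1 and 0.

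Chosen after seeing the data, leaving out 4 partners gave 20 lower in NPC against ES and 8 higher in iPS against NPC. Leaving out the window fragment with most calls gave 27 higher in iPS against ES, 116 higher in ES 2i against ES and 9 lower for the difference of the 2i responses. Leaving out 3 gave 169 higher in NPC against ES, 105 lower in iPS against NPC, 10 higher in iPS against ES, 31 higher in ES 2i against ES and 3 lower for the difference of the 2i responses. Leaving out NPC replicate 1 and ES replicate 2 together changed no RNA call of Olig1 or Olig2.

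Leaving out 1 library at a time, the ranges were 265 to 445 higher and 18 to 40 lower in NPC against ES, 73 to 201 lower in iPS against NPC, 13 to 111 higher and 3 to 29 lower in iPS against ES, 51 to 203 higher and 3 to 20 lower in ES 2i against ES, 0 to 1 higher in iPS 2i against iPS, and 0 to 10 higher and 8 to 38 lower for the difference of the 2i responses. For the other genes of the region they were 1 to 4 higher in NPC against ES, 2 to 4 lower in iPS against NPC, and 1 to 2 higher and 3 to 7 lower in iPS against ES. For the precursor list they were 0 to 1 higher in iPS against ES. A group left with 1 library was assumed to vary like the others.

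Deviations from group means correlated at -0.08 to 0.07 in RNA and -0.04 to 0.17 in 5C between same-numbered libraries. In 5C, 2 of 10 pairs of groups were over 0.1. The percentage of 5C counts between regions was 9.36, 8.01 and 8.14 in replicate 1 of iPS, iPS 2i and ES 2i. In replicate 2 of these groups it was 16.3, 17.6 and 16.2. In NPC it was 15.5 in replicate 1 and 10.8 in replicate 2, and in ES 17.8 and 19.2. No label says whether a replicate number marks a shared batch. With the replicate block, 2 window pairs were higher in iPS 2i against iPS in place of 0, 466 were higher in NPC against ES, and no RNA call of Olig1 or Olig2 changed. The shallowest RNA library, NPC replicate 1, had 4400 reads of Olig1, against 76 in the shallowest ES library, so depth limits the low levels of the pluripotent groups most.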

Other observations

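Across the 272 fragments of the Olig region ranked by their NPC over ES change in summed contacts, the 11 window fragments all lay above 0 on the log2 scale, from 0.28 to 2.87. All fragments ranked up to 146th lay above 0. The window fragments ranked from 2nd to 98th, and fragments outside the windows ranked 1st and 4th, at 5.07 and 2.49. The fragment with the largest value in the windows covers chr16:91228261-91229689, which includes the end of the Olig2 model. Over the medians of all partners in the authors' deposited binned values, the bin of the Olig1 start had 0.07 and -0.25 in iPS 2i, -0.17 and -0.06 in iPS, 0.75 and 0.50 in NPC, 0.00 and -0.06 in ES 2i, and -0.36 and -0.35 in ES. The bin of the Olig2 start had -0.10 and -0.18 in iPS 2i, -0.38 and -0.13 in iPS, 0.72 and 0.46 in NPC, 0.08 and 0.02 in ES 2i, and -0.29 and -0.41 in ES.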
